A study of Anser cygnoides with 18 samples.

Results

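Amino acid transporters are described here as the genes whose symbol in the goose annotation begins with SLC1A, SLC3A, SLC6A, SLC7A, SLC36A, SLC38A or SLC43A and a number, the 7 solute carrier families that hold most known plasma membrane and lysosomal carriers of amino acids. The rule found 43 of the 14628 protein-coding genes with expression values. Of these, 42 belong to these families, though not all of them move amino acids themselves. SLC7A6OS, the gene on the opposite strand of SLC7A6, was taken in by its name alone. The geese were Tianfu meat geese, a composite of Anser anser and Anser cygnoides, and the study gives them as males. From 126 days of age all birds had one diet that held 0.14% methionine, crude protein at 8.09% and 14.29 MJ of metabolizable energy per kg. The control group ate freely, and the high-intake group was force fed with meals that began at 130 g and grew by 5 g each day. After 19 days, at 145 days of age and after a night without feed, liver, abdominal adipose and subcutaneous adipose were taken from 3 geese per group, which gave 18 libraries. They are named by goose (C1 to C3 control, T1 to T3 high-intake) and tissue (L, AA and SA), so that C1-L, C1-AA and C1-SA are pieces of the same goose.

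Amino acids are charged or polar and enter cells through carriers that differ in what they bind and in what drives them. System A carriers (SLC38A1, SLC38A2 and SLC38A4) bring in small neutral amino acids such as alanine together with sodium, the cationic carriers of SLC7 move arginine, lysine and ornithine, and the light chains of SLC7 exchange amino acids across the membrane as partners of a heavy chain from SLC3. SLC1 carries glutamate or small neutral amino acids, SLC6 neutral amino acids, taurine, betaine or neurotransmitters, and SLC43A2 large neutral amino acids such as leucine. In mammals the liver takes up much of the alanine that leaves muscle and uses it for glucose and urea, whereas birds excrete nitrogen mostly as uric acid.

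Expression is given in FPKM, fragments per kilobase of transcript scaled to the mapped fragments of the library, which allows levels to be compared between genes. The deposited log2 values were turned back to FPKM, and differences are on the log2(FPKM + 1) scale, which understates the change of genes at low level. C2-SA stood apart, since its FPKM summed to 107522 over all genes, whereas livers had 387525 to 438339 and the remaining adipose libraries 221093 to 394709. Its members summed to 98.8 FPKM against 195 to 251 in other adipose libraries, and 35 members reached 0.1 there against 27 to 33 elsewhere. The paper reports that C2-SA correlated less with adipose tissues and hypothesizes that it was partly contaminated, for example with skin. That was not tested here. Results on subcutaneous adipose are therefore also given without this library where it matters. Hepatocyte marker genes (6 of 8 listed were present) summed to at least 9790 FPKM in each liver, and adipocyte marker genes to 57.0 to 112 FPKM there against 656 to 3338 FPKM in adipose. Adipose libraries held hepatocyte markers too, from 27.2 FPKM in T2-SA to 979 FPKM in C1-SA and 2701 FPKM in T3-AA. ALB, the albumin gene, was listed at 0 in 5 of 6 livers and at 9871 FPKM in T2-L, yet it made up most of the sums in T3-AA (2285 FPKM) and C1-SA (829.8 FPKM), so that liver and adipose sums rest on different genes. In pieces of tissue, a lower level can come from fewer cells of a type or from less RNA per cell, and these cannot be told apart.

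Of the 43 members, 29 had a mean FPKM above 0.1 in liver, and 31 (abdominal) and 32 (subcutaneous) did so in adipose. A mean above 1 was reached by 21 members in liver and by 21 (abdominal) and 20 (subcutaneous) in adipose, and 18 members reached it in every tissue. At the other end, 15 members stayed below 1 in all 18 libraries. The summed FPKM of all members in control livers was 361 ± 41.2, while high-intake livers had 617 ± 68.4 (SD, n = 3 each), without overlap. It was 213 ± 15.9 in control and 227 ± 8.99 in high-intake abdominal adipose, and 195 ± 83.8 in control, with C2-SA, and 216 ± 8.52 in high-intake subcutaneous adipose (SD, n = 3 each). Without C2-SA, the control subcutaneous libraries summed to 251 (C1-SA) and 236 (C3-SA), above the 206 to 221 of the high-intake group. As a share of the FPKM of all genes, members held 0.0722% to 0.0896% in control and 0.0644% to 0.0668% in high-intake abdominal adipose. In subcutaneous adipose the shares were 0.0696% to 0.0919% and 0.0541% to 0.0700%, and in liver 0.0832% to 0.103% and 0.136% to 0.159%. In liver 3 genes held 68.4% (control) and 71.3% (high-intake) of the summed mean, and in adipose 38.9% to 50.4%. In control livers SLC38A4 alone held 39.8% of the summed mean and in high-intake livers 53.1%, whereas in adipose the leading member, SLC38A2, held 18.7% to 23.9%.

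**Figure D1:**
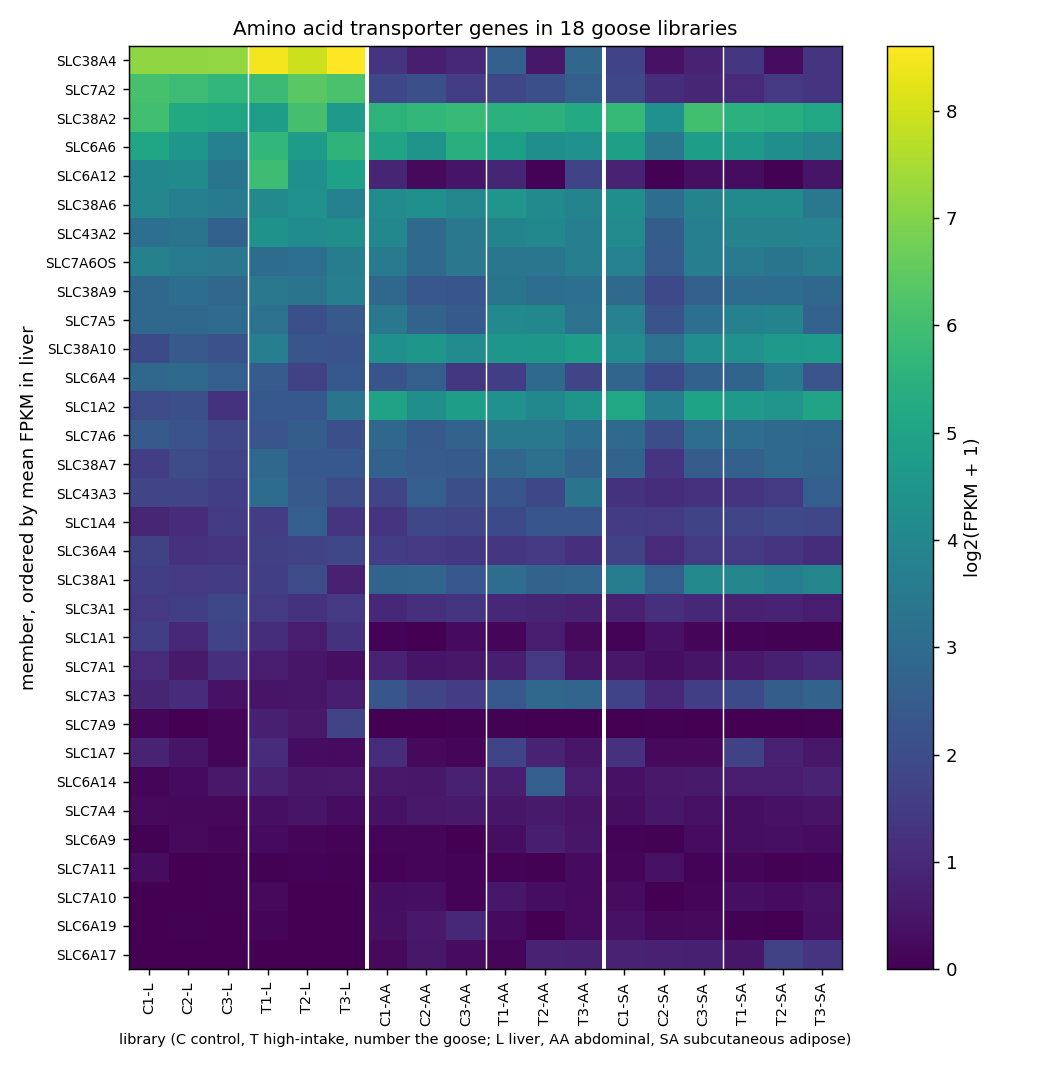
Level of 32 members with a mean FPKM above 0.1 in at least 1 tissue (rows, ordered by their mean in liver) in 18 libraries (columns, grouped by tissue and feeding group), as log2(FPKM + 1) in colour. SLC38A4, SLC7A2 and SLC6A12 were bright in liver and dark in adipose, SLC38A2 and SLC6A6 were high in every tissue, and the column of C2-SA was dimmer than its neighbours.

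The 3 system A carriers differed in their tissues. SLC38A4, known in mammals as the system A carrier of the liver, was the most abundant member there, at an FPKM of 143 in C1-L, 142 in C2-L and 146 in C3-L, and of 347 in T1-L, 249 in T2-L and 388 in T3-L. In abdominal adipose it stood at 1.44, 0.636 and 1.01 in C1 to C3 and at 5.23, 0.457 and 6.13 in T1 to T3. In subcutaneous adipose it stood at 2.31, 0.351 and 0.832 in C1 to C3 and at 1.54, 0.229 and 1.52 in T1 to T3. Every liver was thus far above every adipose library. Between control geese the mean FPKM in liver was 139.6-fold that in abdominal adipose and 123-fold that in subcutaneous adipose, with log2 differences of 6.17 (SE 0.18, limma adjusted p = 1.4e-06) and 6.16 (SE 0.50, adjusted p = 8.5e-09). Among adipose libraries, the levels of SLC38A4 above 2 were those of T1-AA, T3-AA and C1-SA, where the summed hepatocyte markers were 510, 2701 and 979 FPKM, against 27.2 to 663 in the other adipose libraries. Without ALB the sums were 164, 416 and 149 FPKM, above the 12.4 to 114 FPKM of the other adipose libraries. The part of these markers in the adipose levels was not tested.

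SLC38A2, the widely expressed system A carrier that mammalian cells induce when amino acids are scarce, was the most abundant member of both adipose tissues and the third in liver. Its mean FPKM was 46.7 in abdominal and 42.8 in subcutaneous adipose, next to 41.7 in liver, and none of the 6 differences between tissues passed the test. In subcutaneous adipose it ran at 53.6, 19.2 and 62.4 in C1 to C3 and at 44.5, 42.5 and 34.5 in T1 to T3, with C2-SA far below the rest. SLC38A1, a carrier of glutamine among others, showed the opposite order to SLC38A4. It reached 2.01, 1.71 and 1.86 in control livers, 5.90, 5.98 and 4.08 in control abdominal adipose, and 11.6, 4.98 and 15.5 in control subcutaneous adipose. Control livers lay below both adipose tissues without overlap, by 1.13 (log2, SE 0.17, adjusted p = 0.00073) and 1.91 (SE 0.39, adjusted p = 0.00062), the latter lost without C3 (adjusted p = 0.062). The 3 system A genes lie side by side on the plus strand of one scaffold (NW_013185658.1) of the goose reference assembly that the authors used, SLC38A4 at 11566705 to 11588861, SLC38A2 at 11697587 to 11710903 and SLC38A1 at 11736449 to 11768699. Neighbours on the same strand thus held a liver-high, an even and an adipose-high level.

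Of the other SLC38 members, SLC38A6, SLC38A7, SLC38A9 and SLC38A10 were detected in all tissues, and SLC38A8 and SLC38A11 were at or near 0. SLC38A10 was an adipose-high gene. It stood at 2.78, 4.30 and 3.41 in control livers and at 19.1, 22.4 and 16.9 in control abdominal adipose, without overlap (log2 difference of -2.19, SE 0.18, adjusted p = 4.6e-05). Its calls in the other 3 comparisons of liver with adipose were lost without C1 or C3 (control), T3 (abdominal) and T2 or T3 (subcutaneous), at adjusted p of 0.051 to 0.17. The high-intake livers held 11.9, 3.92 and 3.69, with T1-L far above the other livers, and the high-intake abdominal adipose libraries held 22.2, 22.6 and 27.1. SLC38A9, a lysosomal carrier and arginine sensor upstream of mTORC1 in mammalian cells, had a mean FPKM of 6.47 in abdominal and 5.89 in subcutaneous adipose and of 8.47 in liver. It was called higher in liver than in subcutaneous adipose in high-intake geese (0.50, adjusted p = 0.038), a call lost without any 1 goose.

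SLC7A2, a cationic carrier known from mammalian liver, was the second most abundant member of goose liver. It reached 67.3, 58.2 and 50.9 in C1-L to C3-L and 57.8, 83.9 and 70.0 in T1-L to T3-L. Adipose levels were 1.95 to 5.07 in the 6 abdominal libraries. Subcutaneous levels were 2.60, 1.19 and 0.883 in C1-SA to C3-SA and 1.04, 1.71 and 1.504 in T1-SA to T3-SA, so that all adipose was far below the liver. The difference from abdominal adipose was 4.05 in control geese (log2, SE 0.19, adjusted p = 4.1e-06) and 3.96 in high-intake geese (SE 0.25, adjusted p = 5.7e-05). SLC7A3, another cationic carrier, was lower in liver than in abdominal adipose by 1.09 in control geese (SE 0.23, adjusted p = 0.00475) and by 2.11 in high-intake geese (SE 0.19, adjusted p = 0.000185). SLC7A1, the broadly expressed cationic carrier of mammals, was low throughout, with means of 0.54 to 0.74.

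Among the light chains, SLC7A5 (LAT1, an exchanger of large neutral amino acids) and SLC7A6 were present in every tissue, with mean levels of 5.93 and 3.74 FPKM in liver. Their means were 9.99 and 7.43 FPKM in abdominal and 9.42 and 6.34 FPKM in subcutaneous adipose. SLC7A6 was lower in liver than in abdominal adipose in both feeding groups, by 0.55 in control (SE 0.20, adjusted p = 0.043) and 1.05 in high-intake geese (SE 0.19, adjusted p = 0.0035). The control call was lost without any 1 goose (adjusted p of 0.062 to 0.26), and with median centring, where the difference was -0.06. The high-intake call was lost with centring and without T1 (adjusted p of 0.098 and 0.0501). Its values share 1085 bases with SLC7A6OS, and no strand-specific counting is stated, so that reads of the pair cannot be told apart there. SLC7A10, SLC7A11 and SLC7A13 had means of at most 0.25 in any tissue. The heavy chain SLC3A1 was higher in liver than in abdominal adipose in both groups, by 0.48 (SE 0.16, adjusted p = 0.029) in control and 0.49 (SE 0.13, adjusted p = 0.016) in high-intake geese. The control call was lost without any 1 goose (adjusted p of 0.061 to 0.11) and the high-intake call without T1 (0.077) or T3 (0.12). In mammals its partner is SLC7A9, which is described with feeding. The other heavy chain, SLC3A2, is not a symbol that the rule found, and neither are SLC1A5, SLC7A7, SLC7A8 and SLC38A3. These genes were not analysed here, nor were 10 genes with provisional names that the annotation describes as carriers resembling members of these or related families. Among these 10, a gene resembling the cystine/glutamate carrier had a mean FPKM of 90.9 in liver, above the 64.7 of SLC7A2. A gene resembling excitatory amino acid transporter 1 had 9.75, and the rest had at most 4.60. Ranks and levels of members leave these genes out.

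The SLC6 members that carry taurine, betaine or GABA held a pair of abundant genes. SLC6A6, the taurine carrier, was in the top 4 of every tissue, with a mean FPKM of 32.0 in liver that stood beside 26.5 (abdominal) and 20.4 (subcutaneous) in adipose. In high-intake geese it was higher in liver (41.3 ± 13.3, SD, n = 3) than in abdominal (21.9 ± 5.29) and subcutaneous adipose (18.9 ± 4.56), by 0.86 (adjusted p = 0.046) and 1.06 (adjusted p = 0.018), both lost without T1 or T3 (adjusted p of 0.063 to 0.25). In control geese liver (22.7 ± 10.4) and abdominal adipose (31.2 ± 10.5) overlapped, and the difference did not pass (-0.48, adjusted p = 0.28). SLC6A12, which carries betaine and GABA, was a liver gene. Its levels were 15.2, 16.2 and 9.17 in control livers and 60.4, 18.8 and 29.1 in high-intake livers, whereas no adipose library exceeded 2.40 (T3-AA, the library with the most hepatocyte markers). The log2 differences of liver from abdominal adipose were 3.30 (SE 0.26, adjusted p = 3.4e-05) in control and 4.14 (SE 0.54, adjusted p = 0.00087) in high-intake geese. SLC6A4, the serotonin carrier, belongs to the family but moves no amino acid, and its means of 3.65 to 5.79 overlapped between tissues. The 8 SLC6 carriers of neutral amino acids, glycine and proline were low, since only SLC6A14 in abdominal adipose (mean 1.31) and SLC6A17 in subcutaneous adipose (mean 1.06) passed an FPKM of 1. The mean of SLC6A14 rested on T2-AA, at 4.93 against 0.456 to 0.725 in the other abdominal libraries. SLC6A17 was listed at 0 in 5 of 6 livers.

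The glutamate carriers among the members were split between the tissues. SLC1A2, the main glutamate carrier of glia in mammals, was the third most abundant member of abdominal adipose and the second of subcutaneous adipose. Its levels were 3.01, 3.30 and 1.39 in C1-L to C3-L and 30.4, 18.3 and 26.7 in C1-AA to C3-AA. In subcutaneous adipose they were 34.3, 11.9 and 30.7 in C1 to C3 and 23.8, 21.4 and 31.9 in T1 to T3, with C2-SA the lowest. The control groups did not overlap and abdominal adipose had 9.79 times the mean FPKM of liver (log2 difference -2.89, SE 0.28, adjusted p = 9e-05). SLC1A1, the glutamate carrier of epithelia, was at a low level and higher in liver, with 0.969 to 2.34 in control livers and at most 0.187 in control abdominal adipose (log2 difference 1.32, SE 0.20, adjusted p = 0.00086). SLC1A4, for small neutral amino acids, had means of 2.03 to 2.85, and SLC1A3 was near 0. The values of SLC1A7 are uncertain, because its gene overlaps PODN on the opposite strand, which was far more abundant.

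**Figure D2:**
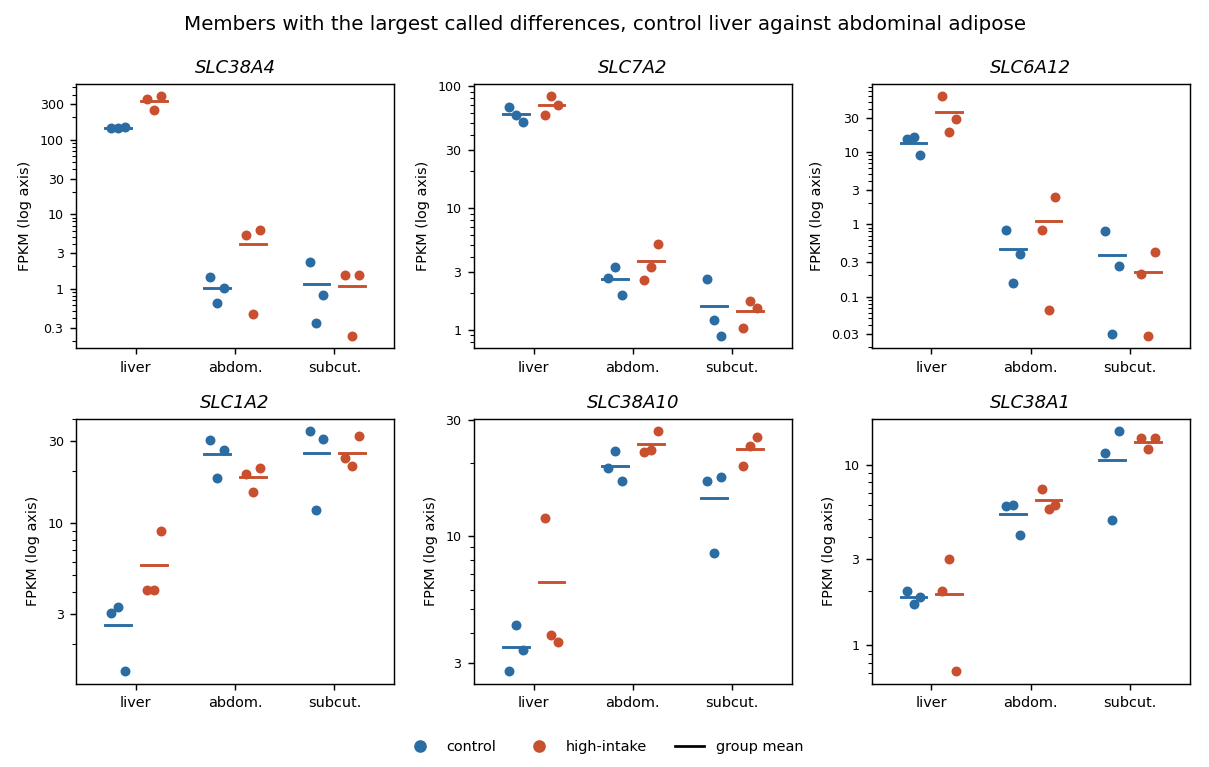
FPKM (log axis) in liver, abdominal adipose (abdom.) and subcutaneous adipose (subcut.) of the 3 members with the largest called difference in each direction between control liver and abdominal adipose. Points are libraries (blue control, red high-intake) and lines are group means of 3 libraries. The livers of SLC38A4, SLC7A2 and SLC6A12 lay above all adipose points, and those of SLC1A2, SLC38A10 and SLC38A1 below nearly all of them.

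In the test across all genes, 15 of 29 tested members differed between control liver and abdominal adipose, 6 higher and 9 lower in liver. Over all genes tested the share called was 62.5% (19% higher and 43.5% lower), so the count lay near or below the background. The other liver comparisons gave 11 of 31 against subcutaneous adipose in control geese (7 higher, 4 lower, against 35.6% of all genes, 12% higher and 23.5% lower), 16 of 31 against abdominal adipose in high-intake geese (8 higher, 8 lower, against 55.9%, 14.3% higher and 41.7% lower), and 17 of 31 against subcutaneous adipose in high-intake geese (10 higher, 7 lower, against 57.2%, 15.9% higher and 41.3% lower). Called in all 4 comparisons were SLC38A4, SLC7A2, SLC6A12, SLC1A1 and SLC3A1 as higher in liver, and SLC1A2, SLC38A10, SLC38A1 and SLC6A17 as higher in adipose. SLC6A17 passed the filter of a mean FPKM above 0.1 through adipose alone, with means of 0.0041 in control and 0 in high-intake livers. SLC1A1 passed it through liver where adipose was lowest, at means of 0.088 (control abdominal) and 0.045 (high-intake subcutaneous). The counts also include SLC6A19, called lower in control liver than in abdominal adipose, which passed it through adipose (means of 0.020 in liver and 0.594 in adipose). SLC7A9, called higher in high-intake liver than in both adipose tissues, passed it through liver, with adipose near 0. Not all of these calls were stable. SLC3A1 in control liver against subcutaneous adipose kept its call in 5 of 10 alternatives and lost it without C1 or C3. SLC1A1 in high-intake liver against abdominal adipose kept its call in 6 of 9 and lost it without T1 or T3. The comparisons share libraries. Without goose C1 or C3 the 11 became 7 or 6, and without C2, the goose of C2-SA, it became 15. Without T1 or T3 the 16 became 8 or 9, and the 17 became 10 or 9. The median of all genes was -0.31 in control liver against abdominal adipose, and after each library was centred on its median it was 0.18, with a split of 11 higher and 4 lower among the 15 members then called. SLC6A17 turned its sign under this scaling in both comparisons with abdominal adipose, while SLC38A4, SLC7A2 and SLC6A12 kept their call in every alternative.

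With the goose as a block, some calls in high-intake geese were lost. SLC1A1 then had an adjusted p of 0.055 in liver against abdominal adipose and SLC36A4, a proton-coupled carrier with means of 1.57 to 2.03 FPKM, had 0.092 there and 0.096 against subcutaneous adipose. SLC6A9, the glycine carrier, had 0.077 against abdominal adipose, and against subcutaneous adipose SLC43A2 had 0.080, SLC38A9 0.076 and SLC7A10 0.073. Other members passed only with the block. These were SLC1A4 (adjusted p = 0.033), SLC6A4 (0.019) and SLC7A3 (0.032 against subcutaneous adipose) in control geese, and SLC7A5 (0.046 against subcutaneous adipose), SLC7A10 (0.045 against abdominal adipose) and SLC1A7 (0.038 and 0.032) in high-intake geese.

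Between the adipose tissues, limma called 0 of 31 members in control geese (0.275% of all genes were called) and 0 of 31 in high-intake geese (0.0487%), with 3 members at an unadjusted p under 0.05 in each (8.17% and 6.38% of all genes). SLC38A1 had the smallest adjusted p in high-intake geese. It reached 7.38, 5.72 and 5.98 in T1-AA to T3-AA and 14.1, 12.2 and 14.1 in T1-SA to T3-SA, without overlap, for a log2 difference of -0.98 (SE 0.14, adjusted p = 0.11). SLC43A3 stood at 2.52, 4.98 and 3.24 in control abdominal adipose and at 1.41, 1.17 and 1.32 in control subcutaneous adipose, again without overlap. Its difference of 0.96 (SE 0.29) had an adjusted p of 0.23, and 0.036 with the goose as a block, which made it the 1 member then called.

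Feeding was compared within each tissue to ask which carriers differed after the high-intake period. In liver, limma called 2 of 29 tested members, among them SLC43A2 as higher, where 2.19% of all genes were called (1.27% higher and 0.919% lower). With these, 11 members had an unadjusted p under 0.05 (24.1% of all genes). The high-intake and control livers did not overlap for 9 members that were higher (16.1% of all genes) and 2 that were lower (15.4% of all genes). The median log2 difference of the tested members was 0.25, and that of all genes was 0.03. Summed markers of some other cell types differed too. In high-intake livers endothelial markers summed to 30.8 to 37.2 FPKM against 50.1 to 70.1 in control livers, smooth muscle and fibroblast markers to 101 to 139 against 223 to 376, adipocyte markers to 57.0 to 83.1 against 84.7 to 112, and keratinocyte markers, at a low level, to 4.05 to 7.43 against 1.25 to 2.66. Most of the adipocyte sum was CIDEA, at 38.7 to 80.1 in high-intake and 76.0 to 96.3 in control livers, which overlapped. PLIN1 went the other way, at 0.333 to 2.46 against 0 to 0.11. Most of the smooth muscle and fibroblast sum was DCN, at 79.7 to 121 against 193 to 280. ACTA2 and MYH11 were apart in the same direction, and LUM and PDGFRA overlapped. Nearly all of the keratinocyte sum was 1 gene, DSP, at 4.00 to 7.35 against 1.23 to 2.59. Summed leukocyte markers (177 to 378 against 297 to 435) and Schwann cell markers (0.208 to 1.07 against 0.739 to 0.899) overlapped, as did the sums of hepatocytes and skeletal muscle. Some single genes within these sums were lower without overlap. PTPRC was at 7.01 to 11.1 against 14.0 to 18.2. CD3E was at 1.66 to 3.94 against 4.77 to 7.59, and CD3D at 2.54 to 8.67 against 10.2 to 12.8. APOH was at 1826 to 3299 against 3514 to 5452. AMBP was at 364 to 559 against 578 to 607, and SERPINC1 at 61.2 to 95.9 against 99.7 to 107. The other leukocyte and hepatocyte genes overlapped. The part of all these markers in the members' values was not tested.

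SLC43A2 (LAT4) lets branched-chain and other large neutral amino acids pass out of or into cells without sodium. Its FPKM was 7.80 in C1-L, 8.87 in C2-L and 5.43 in C3-L, and 19.8 in T1-L, 17.0 in T2-L and 18.5 in T3-L. All high-intake livers were above all control livers, by 2.50 times in the mean (log2 difference 1.24, SE 0.20, adjusted p = 0.039). The call was lost whenever any 1 liver was left out, with an adjusted p of 0.051 to 0.13 and differences of 1.06 to 1.37. In adipose SLC43A2 ranged from 4.81 to 16.9 and the feeding groups overlapped. SLC43A2 (scaffold NW_013185758.1, 208543 to 239840, plus strand) shares 46 exon bases with SCARF1 on the same strand, whose FPKM was 0.636 to 1.01 in control and 0.474 to 0.869 in high-intake livers.

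SLC38A4 narrowly missed the threshold in liver. From the levels given above, its mean FPKM was 2.28 times as high in high-intake as in control livers, without overlap (log2 difference 1.16, SE 0.22, adjusted p = 0.0501). Leaving out T2-L, the lowest liver of its group, gave an adjusted p of 0.032 and a difference of 1.35, and leaving out other livers gave 0.068 to 0.18. A lncRNA locus of the study, XLOC_034059, lies 9918 bases before SLC38A4 on its scaffold. Its FPKM was 1.42, 2.59 and 2.50 in control livers and 4.26, 5.09 and 5.24 in high-intake livers, and no adipose library exceeded 0.71. Both genes were thus liver-high and had higher values in each high-intake liver than in any control liver. SLC38A2, by contrast, overlapped between the feeding groups, as it ranged from 33.3 to 62.8 in control and from 24.1 to 65.9 in high-intake livers, with T2-L at the top.

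Among the lysosomal SLC38 members, SLC38A7, which exports glutamine from lysosomes in human cells, reached 2.01, 3.04 and 2.40 in control and 6.37, 4.19 and 4.13 in high-intake livers (log2 difference 0.75, SE 0.21, adjusted p = 0.098). SLC38A9 reached 6.55, 7.59 and 6.14 in control and 9.78, 8.93 and 11.8 in high-intake livers (0.52, SE 0.17, adjusted p = 0.13). Neither overlapped between groups, and neither passed the test. In abdominal adipose the same genes did not overlap either, with adjusted p of 0.25 for SLC38A7 and 0.15 for SLC38A9.

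SLC6A12 had a difference of 1.23 in liver, as large as that of SLC43A2, with a larger SE of 0.42, T1-L (60.4) being far above its group mates (adjusted p = 0.14). SLC6A6 reached 33.5, 22.0 and 12.8 in control and 51.0, 26.2 and 46.9 in high-intake livers, where T2-L lay below C1-L and the groups overlapped (0.88, SE 0.39, adjusted p = 0.22). SLC1A2 was at 4.13, 4.11 and 8.98 in high-intake livers against the 1.39 to 3.30 of control livers (0.89, SE 0.34, adjusted p = 0.17). The largest negative differences among members above a mean of 1, none of which passed, were -0.63 for SLC6A4, -0.41 for SLC1A1 and -0.35 for SLC7A5. SLC6A4 was at 6.29, 6.87 and 4.92 in control and 4.65, 2.15 and 4.15 in high-intake livers, without overlap (adjusted p = 0.19). SLC1A1 was at 2.04, 0.969 and 2.34 in control and 1.21, 0.622 and 1.38 in high-intake livers, where the groups overlapped. SLC7A5 was at 6.53, 6.27 and 6.99 in control livers, a narrow range, and at 8.22, 3.27 and 4.31 in high-intake livers. T1-L was above and the other high-intake livers below all controls. SLC7A2 overlapped between the groups (0.25, SE 0.21, adjusted p = 0.48).

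**Figure D3:**
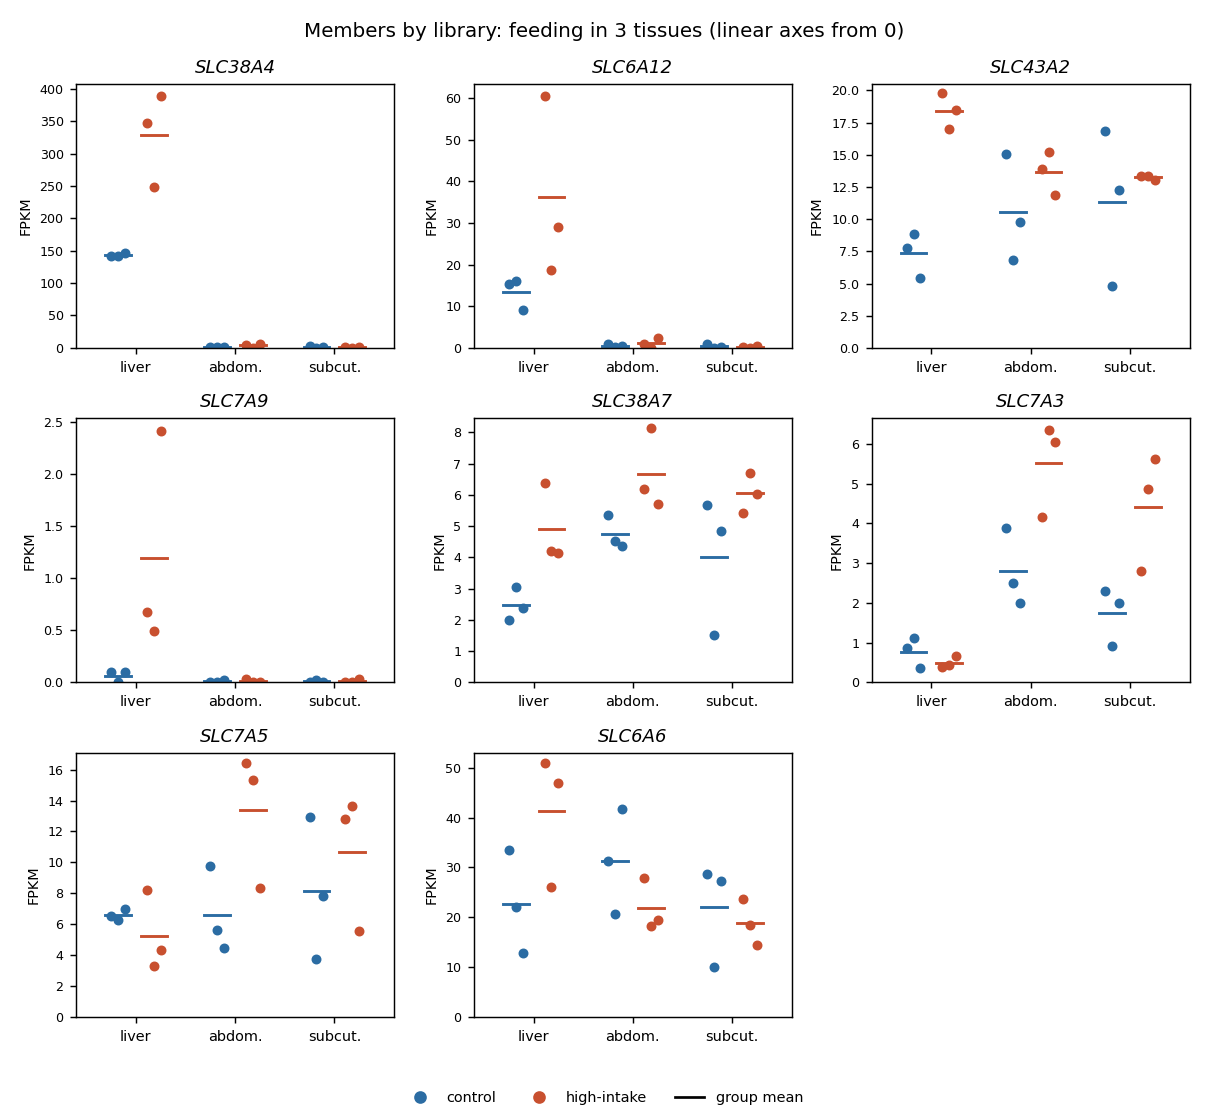
FPKM (linear axes from 0) of 8 members in each library of liver, abdominal adipose (abdom.) and subcutaneous adipose (subcut.), with control in blue, high-intake in red and group means of 3 libraries as lines. In liver the high-intake points of SLC43A2, SLC38A4, SLC6A12, SLC38A7 and SLC7A9 lay above all control points, and in adipose those of SLC7A3 lay above the control points.

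In abdominal adipose, limma called 0 of 31 tested members (0.0878% of all genes were called), the smallest adjusted p was 0.15, and 8 members had an unadjusted p under 0.05 (20.3% of all genes). The groups did not overlap for 6 members that were higher (20.1% of all genes) and 2 that were lower (7.17%) after high intake, and the median difference was 0.27, against 0.12 over all genes. Among members above a mean of 1, the largest positive differences belonged to SLC38A4, SLC7A5 and SLC7A3. SLC7A3 stood at 3.88, 2.51 and 1.99 in C1-AA to C3-AA and at 4.16, 6.35 and 6.05 in T1-AA to T3-AA (0.79, SE 0.24, adjusted p = 0.15). SLC7A5 stood at 9.79, 5.60 and 4.46 in control and 16.4, 15.3 and 8.35 in high-intake geese (0.92, SE 0.34, adjusted p = 0.20). The groups were apart for SLC7A3 and overlapped for SLC7A5, where T3-AA lay below C1-AA. The difference of SLC38A4 was 1.00 (SE 0.58, adjusted p = 0.37), carried by T1-AA and T3-AA, and was 0.59 without T3-AA, the library with the most hepatocyte markers.

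Among members above a mean of 1, the largest negative differences in abdominal adipose were those of SLC6A6, SLC1A2 and SLC38A2, the 3 most abundant members of that tissue. SLC6A6 was at 31.2, 20.7 and 41.6 in control and 28.0, 18.3 and 19.4 in high-intake geese (-0.46, SE 0.29, adjusted p = 0.40). SLC1A2 in high-intake abdominal adipose was at 19.3, 15.2 and 20.9 (-0.41, SE 0.23, adjusted p = 0.35). SLC38A2 was at 45.8, 51.1 and 55.9 in control and at 44.1, 45.6 and 37.6 in high-intake geese (-0.26, SE 0.16, adjusted p = 0.40). Groups overlapped for SLC6A6 and SLC1A2 and were just apart for SLC38A2. Adipocyte markers summed to 1071 to 2529 FPKM in control and 3092 to 3338 FPKM in high-intake abdominal adipose. Of these 4 genes LPL alone was apart, at 775, 283 and 393 in control and 1621, 2018 and 1194 in high-intake libraries. PLIN1, ADIPOQ and CIDEA overlapped between the groups. The part of these markers in the members' values was not tested.

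In subcutaneous adipose, limma called 0 of 32 tested members (2.13% of all genes were called), with 4 at an unadjusted p under 0.05 (12.8% of all genes). In this fit the prior took all the weight. Each SE therefore came from the trend of variance with level over all genes, and not from the spread of the gene's own libraries. Again 6 members were higher (13.1% of all genes) and 1 lower (7.78%) without overlap, and the median difference of 0.17 lay next to that of all genes, 0.21. Among members above a mean of 1, SLC7A3 had the largest positive difference in this tissue. It was at 2.31, 0.924 and 2.01 in C1-SA to C3-SA and 2.80, 4.86 and 5.61 in T1-SA to T3-SA (0.98, SE 0.34, adjusted p = 0.11). The groups were apart, and the difference was 0.74 without C2-SA. SLC38A10 was at 16.8, 8.55 and 17.5 in control and 19.4, 23.5 and 25.6 in high-intake geese (0.69, SE 0.54, adjusted p = 0.60). SLC38A7 was at 5.66, 1.52 and 4.85 in control and 5.41, 6.70 and 6.04 in high-intake geese (0.61, SE 0.40, adjusted p = 0.53). In both genes C2-SA was the lowest library, and without it the differences were 0.38 and 0.17. Without C1-SA, which leaves C2-SA and C3-SA as the controls, 2 members passed the test, SLC7A3 (adjusted p = 0.049) and SLC1A7 (adjusted p = 0.0073). SLC1A7, whose values are uncertain because of PODN, was at 1.36 in C1-SA against 0.155 in C2-SA and 0.165 in C3-SA. The largest negative differences among members above a mean of 1 were small with C2-SA among the controls, at -0.10 for SLC6A6, -0.09 for SLC36A4 and -0.03 for SLC7A2. SLC6A6 was at 28.6, 10.0 and 27.3 in control and 23.6, 18.4 and 14.5 in high-intake geese, so that the control group, with C2-SA, spanned the other. Without C2-SA, the remaining controls of SLC6A6 lay above all high-intake libraries. The same held for SLC38A2, whose values are given above, whereas SLC1A2 still overlapped. SLC36A4 was at 2.22, 1.04 and 1.75 in control and 1.75, 1.48 and 1.196 in high-intake geese. Adipocyte markers summed to 656 to 1984 FPKM in control, with C2-SA the lowest, and 2470 to 2932 FPKM in high-intake subcutaneous adipose. LPL (127 to 407 against 651 to 1485) and PLIN1 (270 to 873 against 995 to 1330) were apart, and ADIPOQ and CIDEA overlapped. The part of these markers in the members' values was not tested.

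**Figure D4:**
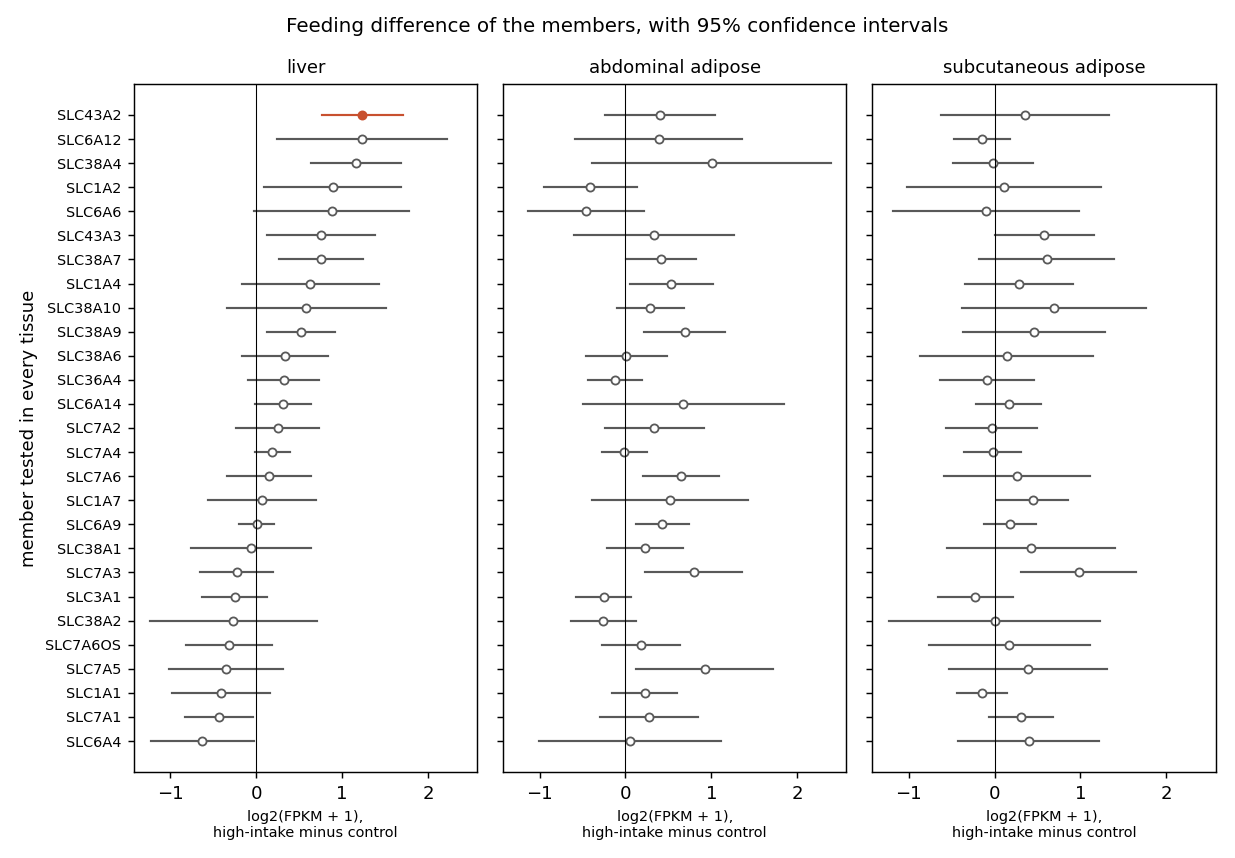
Difference in log2(FPKM + 1) of high-intake from control geese for 27 members tested in every tissue, ordered by liver. Points are limma estimates from 3 against 3 libraries and lines their 95% confidence intervals, and filled points passed an adjusted p of 0.05. In subcutaneous adipose the intervals rest on the variance trend over all genes, and not on each gene's own spread. SLC43A2 at 1.24 in liver was the filled point, and most other intervals included 0.

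Whether the response to feeding differed between tissues was tested as an interaction within geese. Between liver and abdominal adipose 0 of 32 members passed (0.0723% of all genes), with 10 at an unadjusted p under 0.05 (14% of all genes), and between the adipose tissues 0 of 31 (0.0387% of all genes), with 2 at an unadjusted p under 0.05 (4.84%). Between liver and subcutaneous adipose 1 of 31 passed (1.72% of all genes), with 5 at an unadjusted p under 0.05 (11%). It was SLC7A9, the light chain that carries cystine and cationic amino acids in kidney and gut. SLC7A9 was at 0.098, 0 and 0.096 in C1-L to C3-L and at 0.674, 0.498 and 2.42 in T1-L to T3-L, and no adipose library exceeded 0.033. The high-intake livers were thus above all others, at a low level. SLC7A9 passed the filter on low values through the high-intake livers, with a mean FPKM of 1.197 there, 0.064 in control livers and 0.0091 and 0.0096 in control and high-intake subcutaneous adipose. With adipose near 0, its excess over subcutaneous adipose, 0.94 (SE 0.24, adjusted p = 0.032), restates the feeding difference in liver, 0.94 (SE 0.29, adjusted p = 0.12), which did not pass. Without goose T3 the excess was 0.59 (adjusted p = 0.21), without goose C2 it was 0.89 (adjusted p = 0.40), and a fit without the goose as a block gave an adjusted p of 0.29. SLC7A9 shares 233 exon bases with a lncRNA gene on the opposite strand, so that reads of the pair cannot be told apart there.

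SLC7A3 had the next smallest adjusted p in this comparison. Its feeding difference was -0.23 in liver and 0.98 in subcutaneous adipose, a contrast of -1.21 (SE 0.35, adjusted p = 0.071), and against abdominal adipose the contrast was -1.02 (SE 0.24, adjusted p = 0.16). Leaving out goose C1, C3 or T1 brought the first of these to 0.019 to 0.025, and without C2 it was 0.34. SLC7A5 had a contrast of -1.28 between liver and abdominal adipose (SE 0.39, adjusted p = 0.225). For SLC43A2, called in liver and in neither adipose tissue, a difference between the tissues did not pass the test, as its contrasts were 0.84 with abdominal (SE 0.35, adjusted p = 0.34) and 0.88 with subcutaneous adipose (SE 0.55, adjusted p = 0.63).

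Genes around the carriers were looked at by lists. Of 24 genes of the amino acid response, by which mammalian cells answer shortage through ATF4, 18 were in the files and tested. In liver 1 passed, GPT2 as higher, and 5 of 18 had a positive difference, with a median of -0.28. Over all genes tested 52.9% had a positive difference in liver, 63.2% in abdominal and 69.0% in subcutaneous adipose. GPT2, the mitochondrial alanine aminotransferase, was at 12.3, 14.3 and 20.4 in control and at 605, 326 and 261 in high-intake livers, far apart (4.52, adjusted p = 0.015). ATF4 itself was at 165, 166 and 152 in control and 76.2, 114 and 77.0 in high-intake livers, also without overlap, at an adjusted p of 0.078. PSPH, a serine synthesis enzyme and the most abundant gene of the list, overlapped between the groups (adjusted p = 0.90). None of the 18 genes passed in abdominal adipose, where 13 were positive, or in subcutaneous adipose, where 14 were positive, counts near the shares of all genes. Of 34 genes of amino acid sensing by mTORC1, which include the member SLC38A9, 27 were tested and 0 passed in each tissue, with 16 positive in liver, 14 in abdominal and 25 in subcutaneous adipose, to be read against the same shares of all genes. Its most abundant genes were SESN1, with 27.4 to 34.2 FPKM in control and 25.5 to 37.2 in high-intake livers, and LAMTOR5, with 24.1 to 34.4 and 19.97 to 34.5, which overlapped between the groups. C2-SA was the lowest subcutaneous library for both, at 44.3 and 9.86 FPKM. The subcutaneous counts of the lists include C2-SA and were not made without it. Of 14 other carriers of amino acids and peptides 12 were in the files, 8 or 9 were tested in each tissue, and 0 passed in any. The most abundant were SLC15A4, a lysosomal carrier of histidine and peptides, with 14.9 to 19.4 FPKM in control and 20.6 to 29.3 in high-intake livers (adjusted p = 0.18), and SLC16A10, a carrier of aromatic amino acids, with 7.46 to 10.1 and 7.94 to 9.92.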

How the data were processed

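The authors depleted ribosomal RNA, mapped paired reads to the goose assembly with TopHat2 and estimated FPKM with Cufflinks 2.1.1. The deposited values were read as log2(FPKM + 1), since FPKM times transcript length then sums to 255661 to 821550 per library. They hold no counts. The smallest steps between low values, 0.0205 to 0.0375 FPKM times kilobase per fragment, give a rough idea of depth only, so no counting interval is given. A value of 0 may be a failed estimate. RNA isolation is named as RNeasy in the paper and Trizol in the labels.

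Tests took in each gene whose FPKM averaged above 0.1 across the libraries of that comparison and were run on log2(FPKM + 1) with limma 3.58.1 (R 4.3.3, trended prior, two-sided), adjusted by Benjamini-Hochberg over every gene in the fit, and called at 0.05. Libraries of 1 goose share its number. Deviations of same-goose libraries correlated at 0.03 to 0.54, above 0.1 in 14 of 18 pairs. Tissue comparisons were fitted without and with the goose as a block, and interactions with it. With 3 geese against 3, an exact permutation test could not go below 0.1.

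Library values are printed for members called in a feeding comparison or interaction, for the 3 most abundant per tissue, for the 3 largest feeding differences in each direction per tissue with mean FPKM above 1, and for the 3 largest called liver-abdominal differences in each direction. Results on 1 member are not reported here, in text or figures, though counts include it. Members named beyond this rule, such as SLC38A9, SLC43A3, SLC6A14 and the lncRNA, were chosen after their values were seen. So were the hepatocyte sums without ALB. Members, rule and lists were chosen with earlier results of these data known. Alternatives were another pseudocount, no filter or a mean above 1, median centring, an untrended prior, a fit of all 18 libraries, the block, and each library or goose left out. The limma procedure was tested on simulated data. Lists not named above include markers of leukocytes (131 to 1106 FPKM summed per library), skeletal muscle (0.773 to 75.3), keratinocytes (1.25 to 189) and Schwann cells (0.208 to 1.81), and none of 5 erythroid markers was found. In adipose nearly all of the keratinocyte sum was 1 gene, PPL, at 21.2 to 188, while DSP and TP63 were at most 1.91.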

Additional observations from a re-analysis of the deposited data

Results flagged for a closer look

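SLC7A9 was the 1 member whose response to feeding differed between tissues by a test of the difference itself, between liver and subcutaneous adipose, with an excess in liver of 0.94 on the log2(FPKM + 1) scale (SE 0.24, limma adjusted p = 0.032). All 3 high-intake livers were above all 3 control livers, and the 6 subcutaneous libraries were at or near 0. SLC7A9 entered the test through its level in high-intake livers, and with adipose near 0 the excess restates the liver difference, which alone did not pass (adjusted p = 0.12). The call was lost without the filter on low values, with median centring, with a constant variance prior, without the goose as a block and without goose C2 or T3.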

How the results depend on the processing

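With 3 geese per group and FPKM without counts, many calls rest on single geese, those on feeding and also some large tissue differences such as those of SLC38A10, SLC38A1 and SLC1A2 in high-intake liver against abdominal adipose. Of 62 member differences called, 25 were called under every alternative, among them SLC38A4, SLC7A2 and SLC6A12 in all 4 comparisons of liver with adipose. Over all alternatives these calls were kept 481 of 608 times, fell short of the threshold 122 times and turned their sign 5 times. The turned signs, all under median centring, were those of SLC6A17 (0.15) and SLC7A4 (0.15) in control liver against abdominal adipose, SLC6A9 (0.24) and SLC6A17 (0.031) in high-intake liver against abdominal adipose, and SLC7A10 (0.27) in high-intake liver against subcutaneous adipose. Centring gives each library the same median, which shifts the difference of every gene in a comparison by the same amount. In control liver against abdominal adipose it turned the median difference of all genes from negative to positive. Why the library medians differ between tissues was not tested, nor was the cause of the other changes.

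The 2 members called for feeding in liver became 0 without a filter on low values and 0 with a replicate block, in which control and high-intake geese share only a number, so that no pairing is implied. Leaving out 1 library gave 0 to 1 in liver and 0 to 2 in subcutaneous adipose. Control liver against subcutaneous adipose went from 11 to 7 members with a mean FPKM above 1, and to 6 to 15 without 1 goose at a time. The count without 1 goose was 8 to 13 for high-intake liver against abdominal adipose and 9 to 12 against subcutaneous adipose, where the count with all geese was 16 and 17. Control abdominal against subcutaneous adipose went from 0 to 1 with the goose as a block. For the interaction of liver and subcutaneous adipose, 1 member became 0 without a filter, with median centring, with a constant variance prior and without the replicate block, and 0 to 2 without 1 goose. For that of the adipose tissues, 0 became 1 (SLC38A4) with a mean FPKM above 1, and 0 to 1 without 1 goose. The replicate block changed no count of calls by over 1.5 times elsewhere. Centring gave 11 higher and 3 lower members in control liver against subcutaneous adipose, 12 and 3 in high-intake liver against abdominal adipose and 17 and 4 against subcutaneous adipose.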
